A study of Mus musculus with 13 samples.

Results

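The BCL2 family of apoptosis genes was followed in MP EPO-GEMM ovarian tumors of mice. Its members were the 10 rows of the deposited table whose gene name was Bcl2, Bcl2l1, Mcl1, Bax, Bak1, Bbc3, Pmaip1, Bcl2l11, Bid or Bad, out of 53465 rows in all. Each name had a single row, and all 10 members were among the 17277 genes with enough RNA to be tested. RNA-seq of bulk tissue was available for 3 ovaries of wild-type (WT), non-treated C57BL/6 mice and for 10 MP tumors, which carry the label Myc;p53-/- and were likewise non-treated. The tumors arose in WT C57BL/6 females, 8 to 12 wk old at surgery, whose left ovary had been electroporated with a vector for Cas9 and an sgRNA against Trp53 and with a MYC transposon mobilized by the Sleeping Beauty transposase. Electroporation reached the ovary and the surrounding oviduct in otherwise normal hosts, tumors were collected at a humane endpoint, and RNA was taken from whole tumor tissue. The age of the mice when ovaries and tumors were collected and the promoter of the MYC transposon were not given in the sources used here.

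Proteins of this family decide whether the outer mitochondrial membrane is opened, the step that releases cytochrome c and starts the caspase cascade. BCL2, BCL-XL (from Bcl2l1) and MCL1 keep cells alive by holding the pore-forming effectors BAX and BAK (from Bak1) in check. BH3-only proteins, among them PUMA (Bbc3), NOXA (Pmaip1), BIM (Bcl2l11), BID and BAD, relay stress signals by binding the pro-survival proteins or the effectors. Bbc3, Pmaip1 and Bax are textbook transcriptional targets of p53, whereas MYC is known to prime cells for apoptosis, so that tumors with MYC and without p53 raise the question of how p53-dependent members compare with the rest of the family.

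Start-site sequences were taken from RefSeq (GRCm38.p6), which held 15 annotated starts for 9 of the 10 members. Pmaip1 had no entry. In the 250 bases before each start, both strands were searched for CACGTG, the E-box letters that MYC with MAX can bind, and for the consensus p53 half-site and full site (a pair of half-sites with a spacer of at most 13 bases). The E-box letters were in 2 of the 15 member windows (6.02% of 32851 RefSeq windows of the same length), a p53 half-site was in 1 (7.13% of all windows) and a full site was in 0 (0.0639% of all windows). The sequences given are those of Bax, the p53-dependent effector and the window with both kinds of letters, the start of Bbc3 that held an E-box, and, for comparison, Bid and Bcl2, members outside the p53-dependent group with opposite directions of fold change and neither motif. Capitals mark the E-box and the half-site, and sequences run 5′ to 3′ on the strand of the gene.
Bax (chr7:45466899-45467148, minus strand): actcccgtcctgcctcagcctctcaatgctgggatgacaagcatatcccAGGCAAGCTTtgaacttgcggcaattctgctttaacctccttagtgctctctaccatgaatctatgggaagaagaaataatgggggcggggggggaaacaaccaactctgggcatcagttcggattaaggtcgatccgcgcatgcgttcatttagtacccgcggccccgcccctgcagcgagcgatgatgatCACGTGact
Bbc3 (chr7:16310181-16310430, plus strand): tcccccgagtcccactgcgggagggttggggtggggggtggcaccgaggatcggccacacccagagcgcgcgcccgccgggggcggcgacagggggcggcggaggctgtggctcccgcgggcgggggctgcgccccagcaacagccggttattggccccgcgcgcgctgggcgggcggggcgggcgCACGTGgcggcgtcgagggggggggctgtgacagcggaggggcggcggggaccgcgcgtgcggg
Bid (chr6:120916825-120917074, minus strand): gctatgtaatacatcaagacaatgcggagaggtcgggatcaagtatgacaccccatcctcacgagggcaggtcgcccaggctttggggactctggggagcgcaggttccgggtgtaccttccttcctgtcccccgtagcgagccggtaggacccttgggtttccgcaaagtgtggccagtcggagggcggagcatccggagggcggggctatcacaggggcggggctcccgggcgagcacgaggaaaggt
Bcl2 (chr1:106714291-106714540, minus strand): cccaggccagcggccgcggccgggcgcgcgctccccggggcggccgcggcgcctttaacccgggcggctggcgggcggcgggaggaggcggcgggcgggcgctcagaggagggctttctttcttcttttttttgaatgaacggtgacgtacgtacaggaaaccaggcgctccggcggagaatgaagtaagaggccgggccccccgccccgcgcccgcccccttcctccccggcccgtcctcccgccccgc
In Bax the half-site began at position -201 and the E-box at position -9 relative to the annotated start, and in Bbc3 the E-box began at position -64. Such a match is a description of letters in a window, and binding was not measured in these libraries.

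Values are TPM, transcript abundances that divide reads by gene length and sum to 1000000 in each library, so that levels can be compared between genes. Reads worked back from the table came to between 31445004 and 64013840 per WT ovary and between 3892690 and 19906507 per MP tumor, and the lowest read count of any member in a tumor was 7 (Pmaip1). Batches follow the number shared in the sample descriptions. MP tumors 1 to 3 share batch 1 with all WT ovaries, MP tumors 4 to 6 form batch 2 and MP tumors 7 to 10 form batch 3. Fold changes are given as log2FC, the difference in mean log2(TPM + 1) between MP tumors and WT ovaries, with its standard error (SE), and values with ± are means and SDs over the 3 WT ovaries or the 10 MP tumors. Over all genes tested the median log2FC was -0.58, and it was -1.19 within batch 1. In MP tumor 2, 10 genes held 55.1% of the TPM, which lowers every other value, and 8 of the 10 members had their lowest tumor level in this library. The targeted gene, Trp53, was at 80.7, 85.0 and 85.4 TPM in the WT ovaries. It was at 4.30 to 26.0 TPM in MP tumors 1 to 9 and at 187 TPM in the library labelled MP tumor 10, above every ovary. Whether the gene was edited in MP tumor 10 cannot be told from RNA levels. Granulosa, luteal and theca, and oocyte markers, which define the ovary, were lower in tumors in 6 of 6, 5 of 6 and 7 of 7 genes (limma adjusted P under 0.05). In the MP tumors, epithelial markers summed to between 5.67 and 1152 TPM, against 237 to 267 TPM in WT ovaries, and leukocyte markers to 0.922 to 6.14 TPM, against 7.02 to 9.12 TPM. Erythroid markers were higher in 2 of 4 genes, over all libraries and within batch 1. Macrophage markers had 0 calls over all libraries, and 3 of 3 tested were lower within batch 1. Of 4 neutrophil markers, 2 were tested (S100a8 and S100a9), with 0 calls over all libraries and both higher within batch 1, and S100a9 was above every ovary in 9 of 10 tumors.

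In the WT ovaries the order of levels was led by Mcl1 at 205 ± 9.37 TPM, followed by Bax at 85.6 ± 5.47 TPM. Bad (58.6 ± 2.12 TPM) and Bak1 (58.1 ± 3.78 TPM) came next with overlapping ranges, and then Bcl2l1 at 46.2 ± 4.22 TPM. Below them lay Bcl2l11 (14.9 ± 0.691 TPM) and Bid (14.3 ± 1.93 TPM), which overlapped, Bbc3 (7.85 ± 2.03 TPM) and Bcl2 (6.22 ± 0.924 TPM), which overlapped as well, and Pmaip1 at 3.04 ± 0.241 TPM. In the MP tumors the order by median was Mcl1 (179.9 TPM), Bax (108 TPM), Bak1 (48.1 TPM), Bad (40.0 TPM), Bid (34.1 TPM), Bbc3 (24.6 TPM), Bcl2l1 (12.6 TPM), Bcl2l11 (7.38 TPM), Pmaip1 (3.29 TPM) and Bcl2 (1.08 TPM). Mcl1 and Bax thus headed both orders, Bcl2 moved to the last place, and Bid and Bbc3 passed Bcl2l1 and Bcl2l11. Ranges of every pair of neighbours in the tumor order overlapped.

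**Figure D1:**
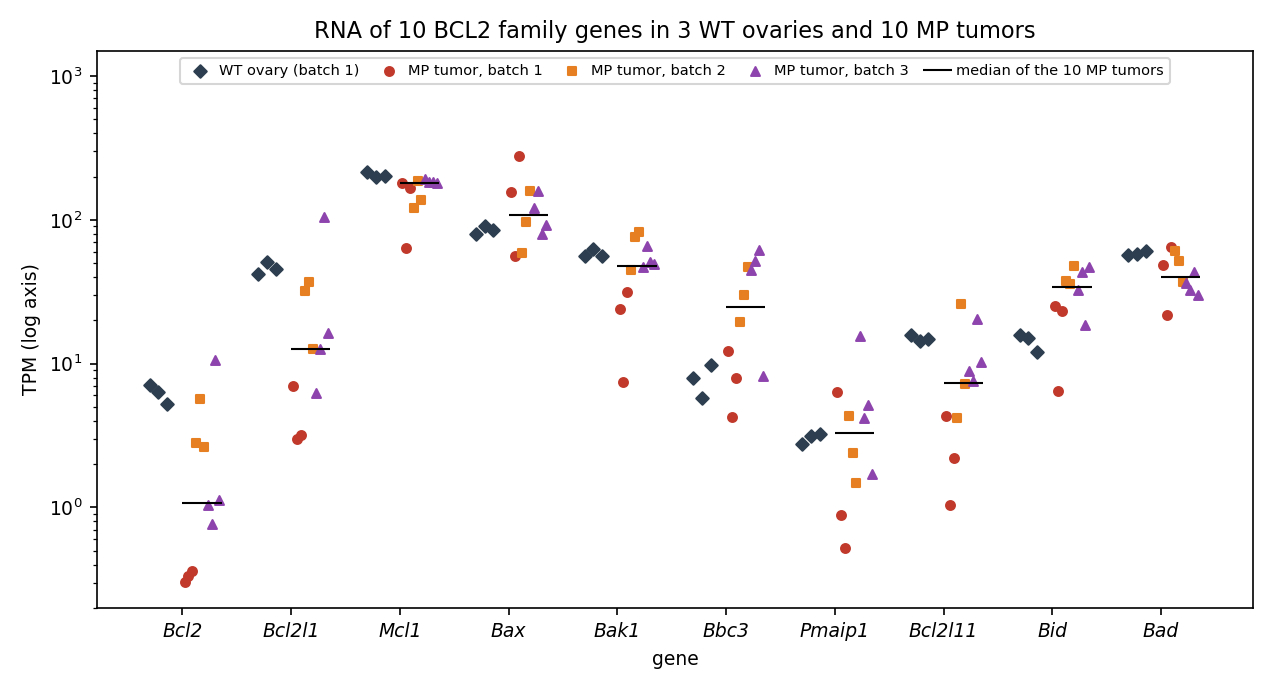
TPM of each member on a log axis, with WT ovaries as diamonds, MP tumors colored by batch and a line at the tumor median. The 3 WT ovaries lay close together for every member, whereas tumors spread most widely for Bcl2, Bcl2l1, Bbc3, Pmaip1 and Bcl2l11, and for Bcl2 the 3 tumors of batch 1 lay lowest, at 0.304 to 0.361 TPM.

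With all 13 libraries, 0 of the 10 members passed an adjusted P of 0.05 (limma on log2(TPM + 1), adjusted over all genes tested), where 14.3% of the genes tested were called lower and 2.51% higher. Bcl2 alone had an unadjusted P under 0.05 (limma, P = 0.0354), a level reached by 33.0% of all genes tested. With limma-voom on the reads, 1 member was lower (Bcl2) and 2 were higher (Bbc3 and Bid), where 17.5% of the genes tested were lower and 16.0% higher. The median log2FC of the members was -0.46, beside -0.58 over all genes tested. Fold changes were negative for 6 members and positive for 4. The SD of log2(TPM + 1) over the 10 MP tumors was above the all-gene median of 0.861 for 6 of the 10 members and reached 1.49 for Bcl2l1. That count is near the share that a median leaves above it by definition, so the members as a set did not spread more than other genes. The labels do not say that each library came from a separate animal, so P values measure the spread between these libraries, which may be technical. The fit also takes 1 variance per gene for both groups, whereas every member had a smaller SD over the ovaries than over the tumors. On the log2 scale the SD was 0.128 against 1.49 for Bcl2l1 and 0.091 against 0.714 for Bax. SEs and P values depend on this choice, and separate variances were not fitted.

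Among the pro-survival genes, Bcl2 and Bcl2l1 were low in most tumors while Mcl1 was only slightly lower. Bcl2 (ENSMUSG00000057329, chromosome 1, 106538178 to 106714274 in GRCm38) was at 7.09, 6.32 and 5.25 TPM in WT ovaries and ranged from 0.304 to 10.6 TPM in MP tumors. It was below every WT ovary in 8 of 10 tumors and above them in MP tumor 9. The log2FC was -1.42 (SE 0.61, adjusted P = 0.122 by limma) over all libraries. Within batch 1, where the tumors had 0.304, 0.334 and 0.361 TPM, it was -2.43 (by limma, adjusted P = 4.88e-05), and the groups did not overlap. Part of Bcl2, 6.09% of its exon bases, is shared with an antisense gene, and the sources used here do not state whether counting used strand.

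Bcl2l1 (ENSMUSG00000007659, chromosome 2, 152780668 to 152831728), which gives BCL-XL, was at 42.3, 50.7 and 45.6 TPM in WT ovaries. Tumor levels ran from 2.98 TPM in MP tumor 2 to 105 TPM in MP tumor 9 with a median of 12.6 TPM, and 9 of 10 tumors were below every WT ovary. The log2FC was -1.70 (SE 0.81, adjusted P = 0.157 by limma), and within batch 1 it was -3.20 (by limma, adjusted P = 0.000144). Whether the calls over all libraries passed turned on MP tumor 9, on batch and on the method. Without MP tumor 9, where 18.9% of the genes tested were lower, Bcl2 had a log2FC of -1.65 (by limma, adjusted P = 0.0297) and Bcl2l1 of -2.02 (by limma, adjusted P = 0.0423). With batch as a covariate and all libraries kept, where 49.4% were lower, Bcl2 (by limma, adjusted P = 0.00446) and Bcl2l1 (by limma, adjusted P = 0.00281) were both lower. With limma-voom, Bcl2 passed (adjusted P = 0.0342) and Bcl2l1 did not (adjusted P = 0.0986).

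Mcl1 (ENSMUSG00000038612, chromosome 3, 95658788 to 95663176), the most abundant member, was at 215, 197 and 202 TPM in WT ovaries. In MP tumors it ranged from 64.1 TPM in MP tumor 2 to 193 TPM in MP tumor 7, with a median of 179.9 TPM. Every tumor was below every WT ovary, the only such case among the members, in a table where 16.4% of the genes tested had all tumors below and 3.02% had all tumors above the ovaries. The distance was small, with a log2FC of -0.42 (SE 0.33, adjusted P = 0.373 by limma), and of -0.72 within batch 1 (by limma, adjusted P = 0.201). Over all libraries it turned positive, 0.30, with median-of-ratios scaling, which moved the median of all genes to -0.02.

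Of the effectors, Bax had a wide range around the ovaries and Bak1 differed between batches of tumors. Bax (ENSMUSG00000003873, chromosome 7, 45461697 to 45466898) was at 80.2, 91.1 and 85.4 TPM in WT ovaries. Among MP tumors it ranged from 56.2 TPM in MP tumor 2 to 278 TPM in MP tumor 3 around a median of 108 TPM, with 7 tumors above and 3 below every ovary. The log2FC of 0.39 (SE 0.42, adjusted P = 0.530 by limma) was smaller than its error, and within batch 1 it was 0.66 (by limma, adjusted P = 0.342). It was larger with median-of-ratios scaling, at 1.11 (SE 0.58, adjusted P = 0.191 by limma), and with limma-voom on the reads, at 1.18 (SE 0.55, adjusted P = 0.107). Bax shares 12.2% of its exon bases with the predicted gene Gm45808 on the same strand, so its reads could be split or dropped there.

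Bak1 (ENSMUSG00000057789, chromosome 17, 27019810 to 27029009) was at 56.3, 62.5 and 55.6 TPM in WT ovaries. The 3 tumors of batch 1 had 24.0, 7.40 and 31.3 TPM, and the 7 tumors of the other batches had 44.7 to 82.2 TPM, on both sides of the ovaries. Over all libraries the log2FC was -0.49 (SE 0.55, adjusted P = 0.536 by limma). Within batch 1 it was -1.64 (by limma, adjusted P = 0.0239), and with median-of-ratios scaling of all libraries it was 0.21. Exons of Ggnbp1 on the opposite strand overlap Bak1.

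Over all 13 libraries the BH3-only genes Bbc3 and Bid had the highest fold changes of the members. Within batch 1 Bax was highest at 0.66, with Bid at 0.14 and Bbc3 at -0.03. Bbc3 (ENSMUSG00000002083, chromosome 7, 16308393 to 16318205), which encodes PUMA, was at 7.96, 5.77 and 9.83 TPM in WT ovaries. MP tumors 1, 2, 3 and 10 had 12.2, 4.24, 8.00 and 8.17 TPM, close to the ovaries, whereas MP tumors 4 to 9 had 19.4, 29.8, 46.8, 44.7, 51.9 and 61.5 TPM. The means were 7.85 ± 2.03 TPM and 28.7 ± 21.1 TPM, a ratio of 3.65, and the log2FC was 1.34 (SE 0.71, adjusted P = 0.1997 by limma). In batch 1, which holds all WT ovaries, the groups overlapped (log2FC -0.03, SE 0.38, adjusted P = 0.957 by limma). High Bbc3 was seen in 6 of the 7 tumors of batches 2 and 3, so that batch and tumor level cannot be told apart for it.

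Bid (ENSMUSG00000004446, chromosome 6, 120891930 to 120916853), whose cleaved product links death receptors to mitochondria, was at 15.7, 15.1 and 12.1 TPM in WT ovaries. It was above every ovary in 9 of 10 MP tumors, at 18.5 to 47.4 TPM, and below them in MP tumor 2 at 6.49 TPM. The means were 14.3 ± 1.93 TPM and 31.7 ± 13.3 TPM, a ratio of 2.21. Its log2FC was 0.94 (SE 0.50, adjusted P = 0.197 by limma) over all libraries and 0.14 (by limma, adjusted P = 0.818) within batch 1. Without MP tumor 2 it was 1.16 (by limma, adjusted P = 0.0287), where 3.68% of the genes tested were higher. Bid shares 17.7% of its exon bases with Bcl2l13 on the opposite strand, and Bcl2l13 was at 38.6 to 42.8 TPM in WT ovaries and 5.01 to 44.7 TPM in tumors.

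MP tumor 2 stood apart by the TPM held in 10 genes and MP tumor 10 by its Trp53. Leaving out both put Bbc3 (log2FC 1.75, limma adjusted P = 0.0499) and Bid (1.09, limma adjusted P = 0.0328) past the threshold, where 3.91% of the genes tested were higher and 16.8% lower. The choice of these 2 libraries was made after seeing the data. MP tumor 2 had the lowest Bbc3 and Bid of the tumors (4.24 and 6.49 TPM), and MP tumor 10 had Bbc3 close to the ovaries (8.17 TPM). Leaving out MP tumor 2 thus raises both fold changes by construction, and leaving out MP tumor 10 raises that of Bbc3. Both genes were also called higher with median-of-ratios scaling (Bbc3 1.96, limma adjusted P = 0.0189, and Bid 1.61, limma adjusted P = 0.00565), where 7.48% of the genes tested were higher and 10.9% lower. When each library's trend with gene length was removed, a step chosen after seeing the data, Bbc3 had a log2FC of 1.81 (by limma, adjusted P = 0.0394) and Bid of 1.58 (by limma, adjusted P = 0.00564), where 10.4% of the genes tested were higher and 10.3% lower. All these settings compare tumors of every batch with ovaries of batch 1 alone. With batch as a covariate, Bbc3 was at -0.03 (by limma, adjusted P = 0.977) and Bid at 0.14 (by limma, adjusted P = 0.818). Batch and tumor level thus cannot be told apart in these calls.

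Pmaip1 (ENSMUSG00000024521, chromosome 18, 66458604 to 66465550), which encodes NOXA, was the least abundant member in the ovary at 2.77, 3.12 and 3.24 TPM. MP tumors ran from 0.517 TPM in MP tumor 3 to 15.6 TPM in MP tumor 7, with 5 tumors above and 5 below every ovary. The log2FC was 0.02 (SE 0.60, adjusted P = 0.983 by limma), and tumors rested on 7 to 121 reads each. Within batch 1 it was -0.55 (by limma, adjusted P = 0.416), and with the scalings and fits that moved the median of all genes to near 0 it was 0.51 to 0.79, with no call.

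Bcl2l11 (ENSMUSG00000027381, chromosome 2, 128126038 to 128162547), which encodes BIM, was at 15.7, 14.3 and 14.8 TPM in WT ovaries and at 1.03 to 26.0 TPM in MP tumors, with a median of 7.38 TPM. Tumors 5 and 9 were above every ovary, and the other 8 were below. The log2FC was -1.03 (SE 0.66, adjusted P = 0.278 by limma) over all libraries and -2.29 (by limma, adjusted P = 0.001) within batch 1, where tumors had 4.30, 1.03 and 2.19 TPM.

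Bad (ENSMUSG00000024959, chromosome 19, 6941861 to 6951898), the growth factor-regulated member, was at 57.0, 57.8 and 61.0 TPM in WT ovaries. MP tumors ranged from 21.6 to 64.4 TPM, and 8 of 10 were below every ovary. With a log2FC of -0.52 (SE 0.35, adjusted P = 0.301 by limma), it had the smallest SD between tumors of all members on the log2 scale, 0.475. Within batch 1 the log2FC was -0.51 (by limma, adjusted P = 0.334), and with median-of-ratios scaling of all libraries it was 0.20. Bad shares 20.5% of its exon bases with Gpr137 on the opposite strand.

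**Figure D2:**
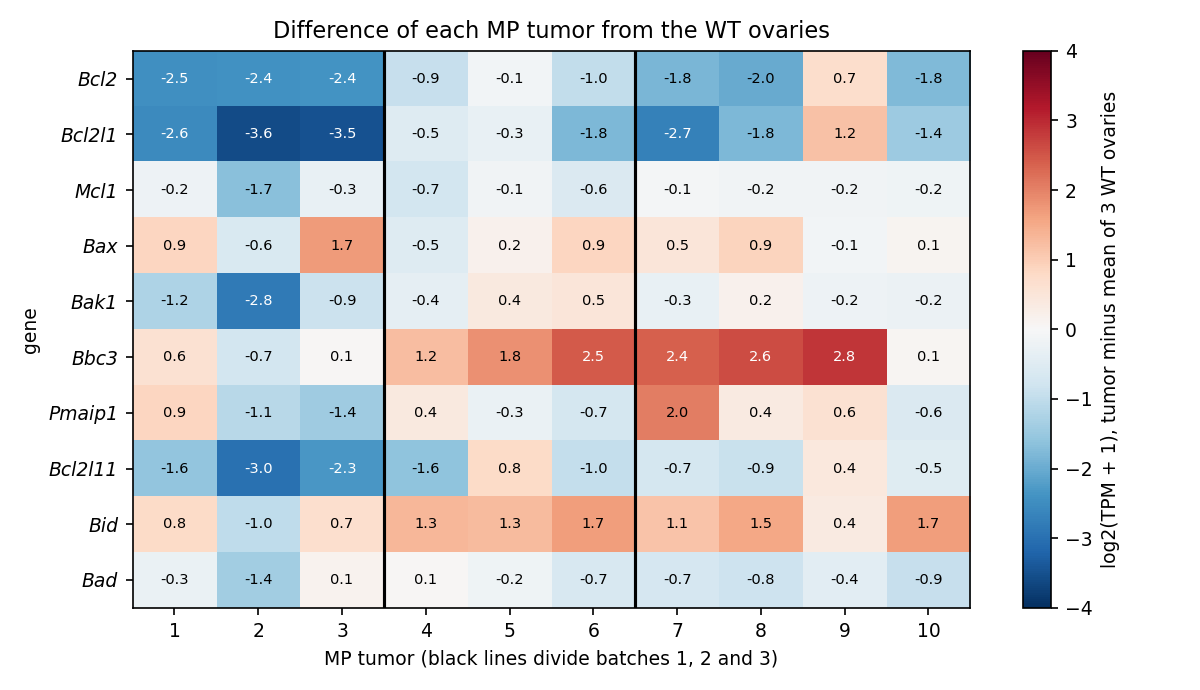
Difference in log2(TPM + 1) between each MP tumor and the mean of the 3 WT ovaries, with a row per member, a column per tumor and black lines between batches. Bcl2 was lowest in the tumors of batch 1, Bbc3 was high in MP tumors 4 to 9, Bid was high in every tumor but MP tumor 2, and MP tumor 9 alone was above the ovaries for Bcl2 and Bcl2l1.

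Within batch 1, 4 members were called lower (Bcl2, Bcl2l1, Bak1 and Bcl2l11) and 0 higher by limma, and 5 members, these and Mcl1, had all 3 tumors below all 3 ovaries. In the same comparison 57.3% of all genes tested were called lower, 6.44% were called higher, and 61.8% had every tumor below every ovary. The members' share of lower calls was therefore not above that of the table as a whole. The median log2FC of the members within batch 1 was -0.63, beside -1.19 over all genes tested.

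**Figure D3:**
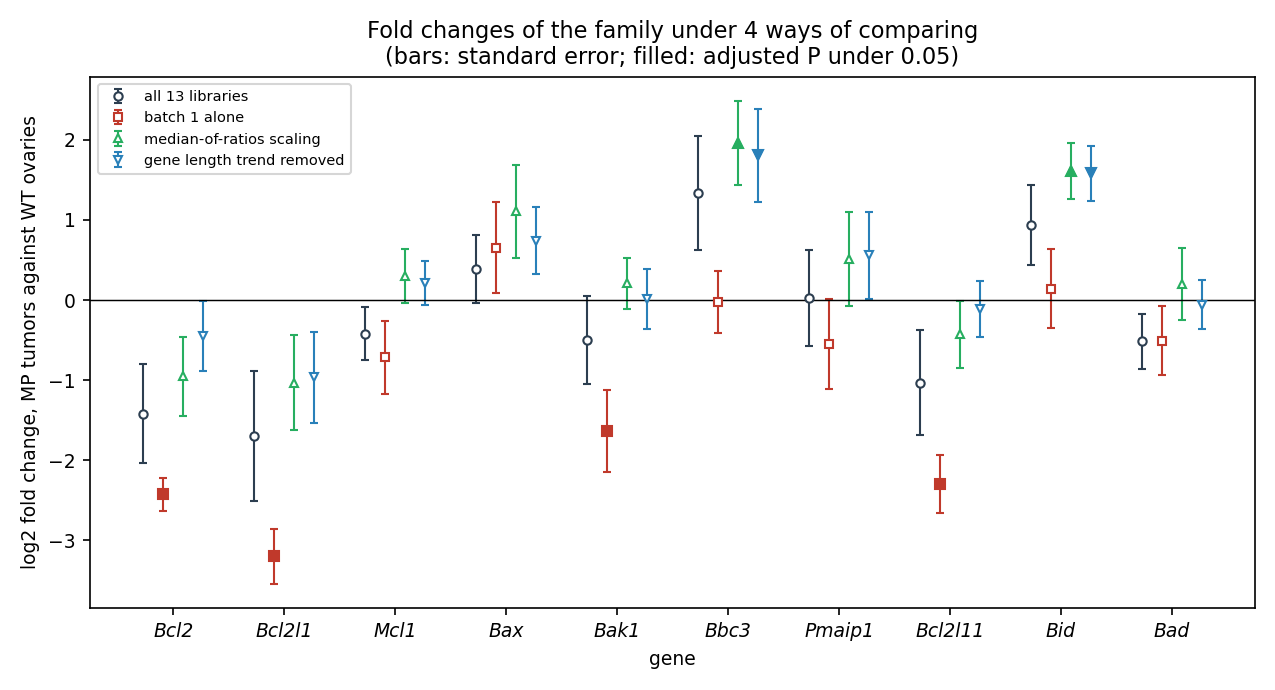
Log2FC of each member with its standard error in all 13 libraries, in batch 1 alone, with median-of-ratios scaling and with each library's trend with gene length removed, with filled symbols where the adjusted P was under 0.05. Batch 1 alone gave 4 lower members and the other scalings gave Bbc3 and Bid as higher, while the comparison of all 13 libraries on TPM called 0.

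The low levels of Bcl2, Bcl2l1 and Bcl2l11 moved with other properties of the libraries and of the genes. Bcl2, Bcl2l1 and Bcl2l11 stood highest among the tumors in MP tumors 5 and 9, which had 5.70 and 10.6 TPM of Bcl2, 37.1 and 105 TPM of Bcl2l1 and 26.0 and 20.5 TPM of Bcl2l11. The smooth muscle and stroma markers Acta2, Myh11, Col1a1 and Pdgfra summed to 2181 and 1056 TPM in those tumors and to 45.8 to 345 TPM in the other 8, against 1525 to 1795 TPM in WT ovaries. Over the whole list 3 of 4 stroma markers were lower in tumors, with Myh11 at 22.3 TPM or less in every tumor. Endothelial markers summed to 170 and 137 TPM in MP tumors 5 and 9, to 3.68 to 71.7 TPM in the other tumors and to 206 to 214 TPM in WT ovaries. Macrophage markers, at 213 and 178 TPM, and leukocyte markers, at 5.90 and 6.14 TPM, were also highest among the tumors in MP tumors 5 and 9, with the other 8 at no more than 167 TPM and 4.81 TPM. The part of these cell types in the levels of these members was not tested, and in bulk tissue fewer cells of a type and less RNA per cell cannot be told apart.

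**Figure D4:**
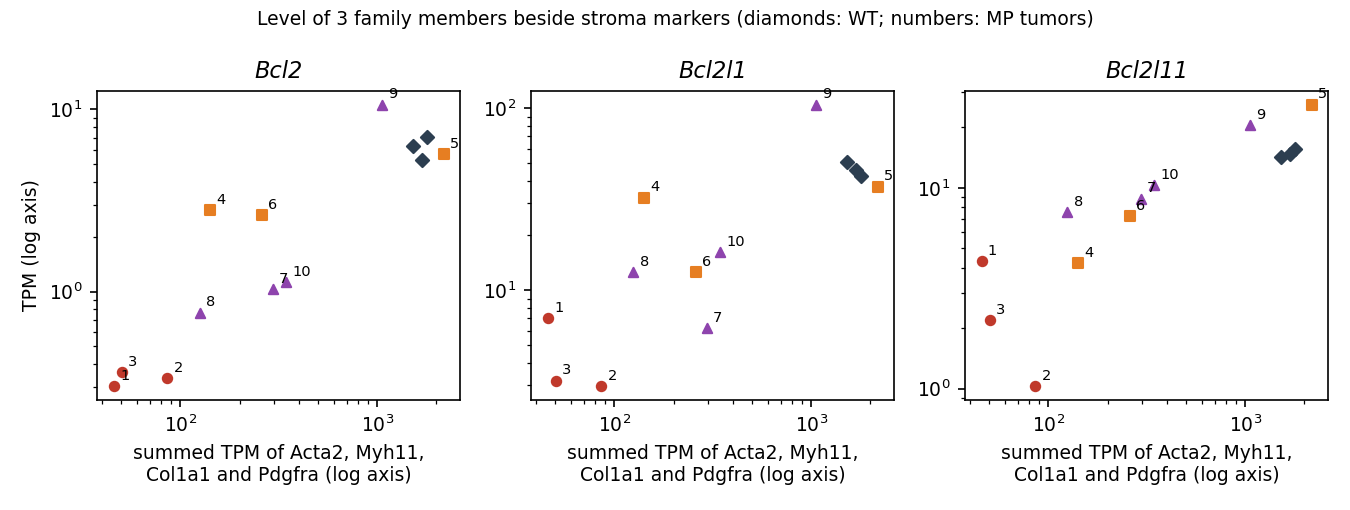
TPM of Bcl2, Bcl2l1 and Bcl2l11 against the summed TPM of 4 smooth muscle and stroma markers, both on log axes, in 3 WT ovaries (diamonds) and 10 numbered MP tumors colored by batch. MP tumors 5 and 9 lie with the ovaries at the upper right, and the 3 tumors of batch 1 lie at the left, with 45.8 to 85.8 TPM of the markers.

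Gene length also ran alongside. Bcl2 (9157 bases), Bcl2l11 (8029 bases) and Bcl2l1 (4586 bases) were the 3 longest members and had the 3 lowest fold changes. Over all 17277 genes tested, log2FC and log2 length had a Pearson correlation of -0.27, which is across genes that share the same libraries. With the length trend of each library removed, the log2FC was -0.45 for Bcl2 (by limma, adjusted P = 0.487), -0.97 for Bcl2l1 (by limma, adjusted P = 0.242) and -0.12 for Bcl2l11 (by limma, adjusted P = 0.842). This step also moved the median log2FC of all genes from -0.58 to 0.04. Scalings that moved that median without any length correction gave values of like size, at -0.61, -0.98 and -0.11 with quantile normalization (median of all genes 0.08) and at -0.95, -1.03 and -0.43 with median-of-ratios scaling (median of all genes -0.02). The part of gene length apart from that of the scaling was not tested.

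Levels were next read as shares of the summed TPM of the 10 members, which a common scaling of a library does not move. Mcl1 held 41.0 ± 1.96% of the family in WT ovaries and 34.1 ± 4.98% in MP tumors, and 9 of 10 tumors were below every ovary. The 3 pro-survival members together went from 51.5 ± 1.28% to 39.3 ± 6.90%, with 9 of 10 tumors below every ovary. Effectors went from 28.7 ± 1.62% to 36.3 ± 8.97%, with 8 of 10 tumors above every ovary. The 2 effectors differed, since the mean share of Bax went from 17.1 to 26.5% and that of Bak1 from 11.6 to 9.72%. Bak1 was below every ovary in 5 tumors and above in 2. The 5 BH3-only members went from 19.8 ± 0.660% to 24.5 ± 4.38%, with 9 of 10 tumors above. Within this class the mean share of Bcl2l11 went from 2.99 to 1.81% and that of Bad from 11.7 to 9.42%, each below every ovary in 8 of 10 tumors. Of single members, Bid had a larger share in every MP tumor (3.21 to 10.8%) than in any ovary (2.45 to 3.14%), including MP tumor 2, where its TPM was low. Bbc3 held 1.15 to 1.99% in ovaries and more than that in 8 of 10 tumors, up to 10.6% in MP tumor 9. Bcl2l1 held 8.46 to 10.1% in ovaries and less in 9 of 10 tumors, down to 0.551% in MP tumor 3. These shares are given as a description without a test.

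The p53-dependent members, Bax, Bbc3 and Pmaip1, were set against the other 7. Their mean log2FC was 0.58 and that of the others was -0.66, a difference of 1.24. Taken within each library and relative to the mean of the ovaries, the difference lay between -0.11 and 0.19 in the 3 WT ovaries and between 0.34 (MP tumor 5) and 2.38 (MP tumor 7) in the MP tumors, with an SD of 0.67 over the tumors. All 10 tumors were above all 3 ovaries. Within batch 1 the tumors had 1.33 to 1.85, and the difference of mean fold changes was 1.55. There Bax was at 0.66, Bbc3 at -0.03 and Pmaip1 at -0.55, which is in both directions, where the median of all genes tested was -1.19. The mean of the others was below every ovary in each of MP tumors 1 to 3, so the gap in batch 1 came with lower other members. MP tumor 10, with its high Trp53, had 0.35, and without this library the difference of mean fold changes was 1.34. By medians the p53-dependent members were at 0.39, the others at -0.52 and all genes tested at -0.58, so the others lay near the table as a whole. The mean log2(TPM + 1) of the p53-dependent members was above every ovary in 7 of 10 tumors, and that of the others was below every ovary in 8 of 10. In MP tumor 1 the p53-dependent members were at 4.64, above every ovary, and the others at 4.04, below every ovary. In MP tumor 3 the p53-dependent members were at 3.97, within the 3.78 to 3.98 of the ovaries, and the others at 3.89, against 5.05 to 5.15. In MP tumor 2 both sets were below every ovary, at 3.05 and 2.85, and Bax, Bbc3 and Pmaip1 were each below the ovary mean there. Dropping any of the 3 genes left it between 0.87 and 1.52. The p53-dependent members are also short, 1576 to 2646 bases against 2007 to 9157 bases for the others, and with the length trend removed the difference was 1.00.

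**Figure D5:**
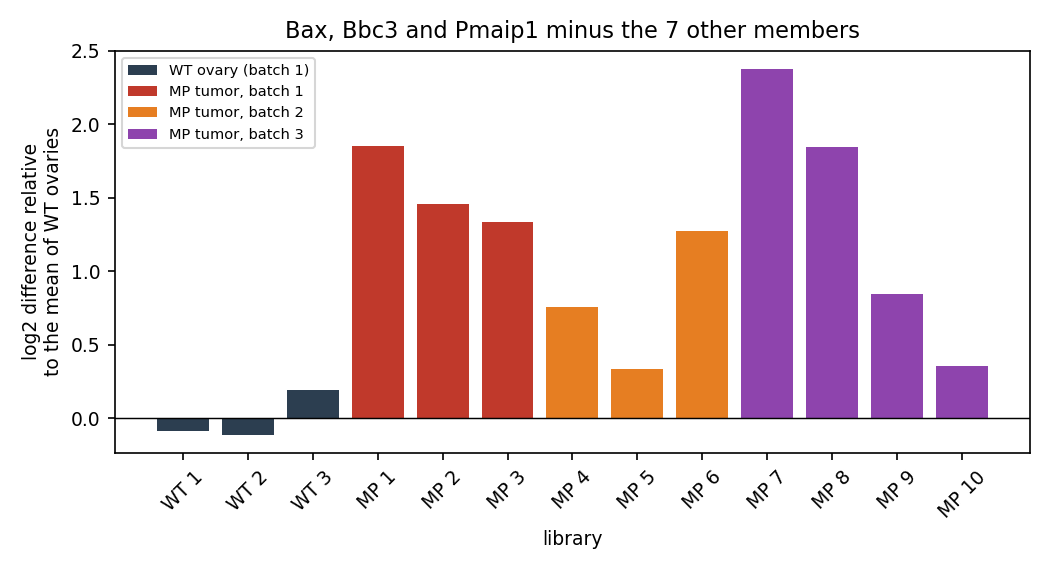
Mean log2(TPM + 1) of Bax, Bbc3 and Pmaip1 minus that of the 7 other members in each library, relative to the mean of the WT ovaries, with bars colored by group and batch. The 10 MP tumors lie at 0.34 to 2.38, all above the 3 WT ovaries at -0.11 to 0.19.

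Genes of the p53 axis outside the family were lower or not called. Of 15 tested, 5 were lower and 0 higher in MP tumors (limma, adjusted P under 0.05), beside 14.3% and 2.51% of all genes tested, with a median log2FC of -1.69 beside -0.58. Within batch 1, 12 of the 15 were lower and 0 higher, beside 57.3% and 6.44% of all genes. Mdm2, the ubiquitin ligase that p53 induces against itself, was at 36.7 to 40.3 TPM in WT ovaries and at most 34.6 TPM in MP tumors, around a median of 25.6 TPM (log2FC -0.65, limma adjusted P = 0.203). Cdkn1a, the cell cycle inhibitor p21, was at 35.0, 111 and 142 TPM in WT ovaries and at 3.16 to 82.3 TPM in MP tumors, and it was lower with a log2FC of -2.62 (by limma, adjusted P = 0.0327). Trp53inp1, a stress-induced p53 cofactor, fell from 77.4 ± 19.4 TPM to 5.97 ± 4.88 TPM, the largest fall of the list (-3.79, limma adjusted P = 0.000615). Ccng1 (-1.69), Phlda3 (-2.61) and Plk2 (-2.08) were the other lower genes, with limma adjusted P values of 0.0053, 0.00982 and 0.0282. Trp53 itself had a log2FC of -2.23 (by limma, adjusted P = 0.0579) and of -3.41 within batch 1 (by limma, adjusted P = 0.000181). Without MP tumor 10, where 17.2% of all genes tested were lower, 7 of the 15 were lower and 0 higher, and Trp53 was among them (-2.61, by limma adjusted P = 0.00241).

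Other genes of the apoptosis pathway were followed in 10 lists, the p53 axis included, that hold 67 tested genes besides the members. Of these, 10 were lower and 3 higher (limma, adjusted P under 0.05) with a median log2FC of -0.83. The 10 lower genes made up 14.9% of the lists, beside 14.3% of all genes tested, and the 3 higher genes 4.48%, beside 2.51%. Within batch 1, 40 were lower and 1 (Birc5) higher. These were 59.7% and 1.49% of the lists, beside 57.3% and 6.44% of all genes tested. The lower shares were thus near those of the table as a whole. With WT ovary 1, 2 or 3 left out in turn, the calls fell to 5 or 6 lower and 0 higher, while 6.70% to 6.92% of all genes tested were lower. Among further pro-survival relatives, 1 of 5 was lower and 0 higher. This gene, Bcl2l10, a family member transcribed in oocytes, was at 22.3 to 36.2 TPM in WT ovaries and at 0 to 0.469 TPM in MP tumors, where no library held more than 1 read. Its fitted log2FC of -4.88 (by limma, adjusted P = 1.40e-08) depends on the value added before the logarithm and is no bound. Oocyte markers summed to 293 to 431 TPM in the ovaries and to 1.43 to 32.1 TPM in the tumors, and their part in Bcl2l10 was not tested. The near-identical paralogs Bcl2a1a, Bcl2a1b and Bcl2a1d had no call and are uncertain, since their reads can be split.

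The effector relative Bok, the 2 further BH3-only genes tested (Bmf and Bik) and the 4 other BCL2-related genes tested gave 0 calls in either direction, with median log2FC values of -0.30, -1.53 and -0.47. Of 10 apoptosome and caspase genes, 1 was lower and 1 higher. Casp9, the caspase that the apoptosome activates, fell from 42.8 ± 0.812 TPM to 11.2 ± 7.55 TPM, with every tumor below every ovary (log2FC -2.16, limma adjusted P = 0.0291). Dffb, the nuclease that cuts DNA in apoptosis, rose from 8.18 ± 1.18 TPM to 21.6 ± 6.39 TPM, with every tumor above every ovary (1.25, limma adjusted P = 0.033, and 1.19 with adjusted P = 0.0506 within batch 1).

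Among 7 genes for inhibitors of apoptosis proteins and their antagonists, 2 were higher and 0 lower. Birc5, survivin, which also serves in chromosome segregation, rose from 28.2 ± 9.22 TPM to 91.1 ± 44.1 TPM with a log2FC of 1.56 (by limma, adjusted P = 0.0245). Htra2, a mitochondrial protease that antagonizes these inhibitors, rose from 31.4 ± 1.27 TPM to 114 ± 54.8 TPM (1.66, limma adjusted P = 0.0189), with 25.6% of its exon bases shared with Aup1 on the opposite strand. Of 8 death receptor genes tested, 2 were lower and 0 higher. Tnfsf10, the ligand TRAIL, fell from 10.9 ± 1.85 TPM to 1.35 ± 1.02 TPM (-2.46, limma adjusted P = 0.00126), and Cflar, the caspase-8 inhibitor FLIP, fell from 29.5 ± 2.01 TPM to 6.19 ± 4.94 TPM (-2.42, limma adjusted P = 0.0158). The 9 mitochondrial outer membrane partners gave 0 calls (median 0.33). Of 6 regulators of MCL1 and BIM, 1 was lower. Foxo1, a transcription factor that can induce Bcl2l11, fell from 171 ± 65.3 TPM to a tumor range of 0.193 to 68.5 TPM (-4.81, limma adjusted P = 0.00394). Granulosa cells of the ovary are known to express Foxo1. Granulosa markers summed to 3353 to 6277 TPM in the ovaries and to 4.54 to 1507 TPM in the tumors, and their part in Foxo1 was not tested. Antisense or opposite-strand genes also overlap exons of Cdkn1a, Casp9 and Foxo1, over 1.81 to 7.78% of their exon bases.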

How the data were processed

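RNA-seq of bulk tissue from 3 WT ovaries and 10 MP tumors was used. The authors deposited TPM values of 53465 genes, and replicates were not pooled. The submitters' processing notes name FastQC 0.11.5, Trimmomatic 0.36, STAR 2.5.3a, featureCounts 1.6.3 and mm10 (GRCm38), whereas the protocol text names a human build, HTSeq and RPKM. The table holds TPM of mouse genes and was taken as the former. Reads were worked back from TPM times gene length, and 100% of values came out whole (within 0.02). TPM was tested as log2(TPM + 1) in genes with at least 1 TPM in at least 3 libraries, with limma 3.58.1 (trend and robust, R 4.3.3) over all 13 libraries. Benjamini-Hochberg adjustment ran over 17277 genes, with a threshold of 0.05. The script was tested on simulated data. A gene-level test was not given in the sources used here. Fold changes on this scale understate the change of low genes.

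The members and lists were chosen with earlier results of these data known. Genes named were the 10 members, Trp53, Mdm2 and Cdkn1a, and of each list every gene past the threshold, or the 4 with the smallest adjusted P where more passed. The 3 p53-dependent members were set from textbook knowledge. Alternatives varied the value added before the logarithm, the filter, the scaling, the batch, a replicate block, the limma options, limma-voom on reads, single libraries, the members counted as p53-dependent, and the median in place of the mean over members. Removal of the gene length trend, and leaving out MP tumors 2 and 10 together, were chosen after seeing the data. Of the table's gene coordinates, those of 8 members equal GENCODE M21, which gave the overlaps. The marker Itgam has more than 1 row and was left out. Counting intervals were not computed. Python 3.11.15 with pandas 2.3.3 and matplotlib 3.10.9 served for tables and figures.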

Additional observations from a re-analysis of the deposited data

Results flagged for a closer look

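Of 21 measures over the 10 MP tumors (the TPM and the family share of each member and the difference of the p53-dependent members), 6 had a tumor whose gap to its nearest neighbor was large beside the range of all 10. The rule is meant to flag about 1 in 20 groups by chance, or 1.05 of these. Gaps in TPM and share were taken without a logarithm, and that rate does not allow for their skew toward high values. No excess of outlying tumors is therefore read from the 6. In MP tumor 9, Bcl2 was at 10.6 TPM and Bcl2l1 at 104.7 TPM, with Bcl2l1 at 18.1% of the family. In MP tumor 3, Bax was at 278 TPM. In MP tumor 7, Pmaip1 was at 15.6 TPM and 3.09% of the family. TPM and share of the same gene are not independent measures.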

How the results depend on the processing

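The difference of p53-dependent and other members kept its sign and stayed within 1 SD over tumors in all 29 alternatives. It was between 1.00 and 1.55 in the 26 that changed the processing or the libraries, 0.90 by the median over members, 1.601 with Bid counted as p53-dependent and 1.46 with Bid and Bak1 counted so. Counts of called members did not. The number called lower was 4 within batch 1 alone, 4 with batch as a covariate and 1 with limma-voom on reads, where 57.3%, 49.4% and 17.5% of all genes tested were lower. It was 0 to 2 when single libraries were left out (2 without MP tumor 9, beside 18.9% of all genes). The number called higher was 2 with median-of-ratios scaling, quantile normalization, limma-voom on reads, the length trend removed, and MP tumors 2 and 10 left out together, where 7.48%, 11.0%, 16.0%, 10.4% and 3.91% of all genes tested were higher. It was 0 to 1 when single libraries were left out (1 without MP tumor 2, beside 3.68% of all genes). WT ovaries 1 to 3 and MP tumors 1 to 3 are all in batch 1, nothing in the labels says that a shared replicate number marks a shared animal or day, and same-numbered libraries did not deviate together (correlations -0.05, 0.02 and -0.04). With the replicate block, 4 members and 41 genes of the wider lists were called lower, as were 9838 of the 17277 genes tested (56.9%).

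Of the wider lists, 40 genes were lower within batch 1 alone, 38 with batch as a covariate, 16 with limma-voom on reads, 17 without both MP tumors 2 and 10, and 5 to 16 when single libraries were left out (16 without MP tumor 10, and 6, 6 and 5 without WT ovaries 1, 2 and 3). The number higher was 1 within batch 1 alone, 5 with the length trend removed, 7 with limma-voom on reads and 0 to 3 when single libraries were left out (0 without WT ovary 1, 2 or 3). The fold changes of 5 members turned sign in some settings, among them Bbc3, which was at 1.34 over all libraries. Under batch 1 alone, batch as a covariate and the replicate block, Bbc3 was at -0.027 and Pmaip1 at -0.55. Pmaip1 was at -0.11 and -0.030 with 0.1 and 0.5 added, at -0.20 to 0.18 without single libraries, and at 0.51, 0.56, 0.63 and 0.79 with median-of-ratios scaling, the length trend removed, limma-voom and quantile normalization. With median-of-ratios scaling Bad was at 0.20, Bak1 at 0.21 and Mcl1 at 0.30. With limma-voom they were at 0.21, 0.24 and 0.31. Bak1 was at 0.024 with quantile normalization, and with the length trend removed Bak1 was at 0.013 and Mcl1 at 0.21. All other fold changes of members kept their sign. The median of all genes was -0.58 on TPM, -0.02 with median-of-ratios scaling and -0.03 with limma-voom, and the share of called genes that were higher was 15.0%, 40.6% and 47.8%. What caused these changes was not tested. Depth limits Bcl2 and Pmaip1 most, with 16 and 7 reads in the poorest tumor.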

Other observations

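The ratio of Bax to Bcl2 TPM, chosen after the values were seen, was 11.3, 14.4 and 16.3 in WT ovaries. It was higher in 9 of 10 MP tumors, at 16.9 to 770, with 7.52 in MP tumor 9 and a median of 99.2. The highest ratios, 517 in MP tumor 1 and 770 in MP tumor 3, were in batch 1.

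Other apoptosis genes were below the ovaries in most tumors without a call, and were likewise picked after their values were seen. Bcl2l2, the pro-survival gene for BCL-W, was at 45.3 to 54.8 TPM in WT ovaries and at 1.53 to 66.6 TPM in MP tumors, below every ovary in 8 of 10 (log2 fold change -1.81, limma adjusted P = 0.158). Bmf, a BH3-only gene, was at 37.4 to 61.1 TPM in WT ovaries and below every ovary in 9 of 10 MP tumors, with a median of 8.28 TPM (-2.31, limma adjusted P = 0.0678). Xiap, the inhibitor of caspases, was below every ovary in 10 of 10 tumors (-1.35, limma adjusted P = 0.064).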
